A study of Mus musculus with 12 samples.

Results

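Decorin (Dcn) and 9 further genes of secreted matrix proteoglycans, biglycan (Bgn), lumican (Lum), fibromodulin (Fmod), osteoglycin (Ogn), prolargin (Prelp), asporin (Aspn), osteomodulin (Omd), podocan (Podn) and versican (Vcan), were followed in mouse fibroblasts deprived of polyamines. They were found by gene symbol, and the 10 genes are among 19938 genes with a value. Each of the 10 was read by 1 transcript cluster, the probe group that a whole-transcript array assigns to 1 gene. NIH3T3, an established line of mouse embryonic fibroblasts, was grown with 1 mM difluoromethylornithine (DFMO), an inhibitor of the polyamine-making enzyme ornithine decarboxylase, and RNA came from cells sorted in G1. There were 3 arrays of untreated cells and 2, 3, 2 and 2 arrays of cells treated for 12, 24, 48 and 96 h, all called biological replicates in the labels, and their number limits the precision. The untreated cells stand for 0 h, so hours of drug and hours of growth after seeding cannot be told apart.

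Most of these genes encode small leucine-rich proteoglycans, short core proteins with leucine-rich repeats that fibroblasts secrete and that bind collagen fibrils, set their width and spacing, and hold growth factors such as TGF-beta. Decorin and biglycan carry chondroitin or dermatan sulfate chains, while lumican, fibromodulin and others can carry keratan sulfate. Versican is a much larger proteoglycan that binds hyaluronan and forms a loose, hydrated matrix. Decorin is a classical product of fibroblasts and is known to be low in many transformed or fast-growing cells.

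Promoter windows of RefSeq (build GRCm38.p6), running from 250 bases before to 50 bases after the annotated start, were held for 8 of the 10 genes. None was held for Dcn or Lum. Windows of 3 genes are printed 5′ to 3′ on the strand of the gene: Prelp, whose level rose in the results, and Bgn and Vcan, whose high levels gave no call. Capitals mark matches, on either strand, to the TATA box TATAAA (reverse TTTATA), the CCAAT box CCAAT (reverse ATTGG) and the GC box GGGCGG (reverse CCGCCC).
Prelp, chr1:133921352-133921651, minus strand: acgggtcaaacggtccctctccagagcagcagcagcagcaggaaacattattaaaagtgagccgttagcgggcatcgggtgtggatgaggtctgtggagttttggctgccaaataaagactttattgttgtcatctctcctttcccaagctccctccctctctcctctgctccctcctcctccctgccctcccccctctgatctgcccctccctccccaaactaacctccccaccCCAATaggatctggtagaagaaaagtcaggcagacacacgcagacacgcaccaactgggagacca
Bgn, chrX:73483351-73483650, plus strand: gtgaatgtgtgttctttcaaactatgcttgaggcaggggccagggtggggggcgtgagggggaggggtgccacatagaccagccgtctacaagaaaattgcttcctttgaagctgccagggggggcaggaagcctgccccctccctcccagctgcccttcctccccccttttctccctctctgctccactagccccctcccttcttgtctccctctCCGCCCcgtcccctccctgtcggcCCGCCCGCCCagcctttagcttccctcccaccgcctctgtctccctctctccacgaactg
Vcan, chr13:89742463-89742762, minus strand: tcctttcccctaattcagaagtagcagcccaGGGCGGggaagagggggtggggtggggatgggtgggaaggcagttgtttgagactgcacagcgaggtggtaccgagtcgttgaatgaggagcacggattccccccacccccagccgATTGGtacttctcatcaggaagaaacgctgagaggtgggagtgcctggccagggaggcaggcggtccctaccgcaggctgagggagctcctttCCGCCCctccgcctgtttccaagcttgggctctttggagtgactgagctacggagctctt
The Prelp window held 1 CCAAT match and no match to the other letters. The Bgn window held 3 GC box matches, of which a pair overlapped, and the Vcan window held 2 GC box matches and 1 CCAAT match. Among 32851 RefSeq windows of the same length, 37.4% held a CCAAT match, 35.7% a GC box match and 13.6% a TATA match, so single matches of the first and second kind are common. GC content was 55.3% in Prelp, 63.7% in Bgn and 61.0% in Vcan, against a median of 52.7%. TATA matches were present in the windows of Ogn and Aspn, with 2 in each, and those of Ogn overlapped in 1 stretch read on both strands. These are matches of letters in 1 window, and binding was not measured.

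Levels are log2 values in which background remains, so a transcript that is absent still gives a value. A floor of 4.02 was set at the 90th percentile of the untreated means of 18 leukocyte markers, and a group mean below it is called near the floor. In untreated cells 47.3% of all genes lay at or below the floor, and background understates changes that start there. Array medians of the deposited values were 4.13 to 4.20, and the quantile normalisation of RMA, named in the submitters' notes, can hide a change common to all transcripts. Of 13 fibroblast markers measured, 12 were above the floor in every group, with a mean of 9.63 to 9.68 on untreated arrays and 9.29 to 9.31 on 96 h arrays. At 96 h 1 of these markers was called higher, Fn1 (fibronectin), and 7 lower, of which Thy1, from 8.32 to 5.97, alone kept its call with each array left out in turn. Across 8 lists of markers of other cell types, 62 of 73 markers were near the floor in untreated cells and 61 at 96 h. Their mean was 4.03 to 4.06 on untreated arrays and 4.06 to 4.10 on 96 h arrays. The 18 leukocyte markers that set the floor are among the 73, and by that definition 16 of them were near it in untreated cells. Of the 73, 5 were called higher at 96 h. Lyz2 (leukocyte) went from 4.34 to 6.25, Des (smooth muscle) from 3.61 to 4.52 and Cdh1 (epithelial) from 4.04 to 4.62. Mkx (tenocyte) went from 5.78 to 6.30, and Tek (endothelial) stayed near the floor at 3.37 and 3.71. The 2 lower were Krt14 (epithelial), from 8.83 to 7.01, and Cnn1 (smooth muscle), from 4.65 to 4.04. Calls of Mkx and Cnn1 were lost when 1 array was left out. Untreated levels were also high for Acta2 and Tagln (smooth muscle, 11.88 and 8.58), Sox9 (chondrocyte, 9.16) and Lpl (adipocyte, 7.72). The pan-leukocyte marker Ptprc stayed near the floor at 3.36 and 3.35.

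**Figure D1:**
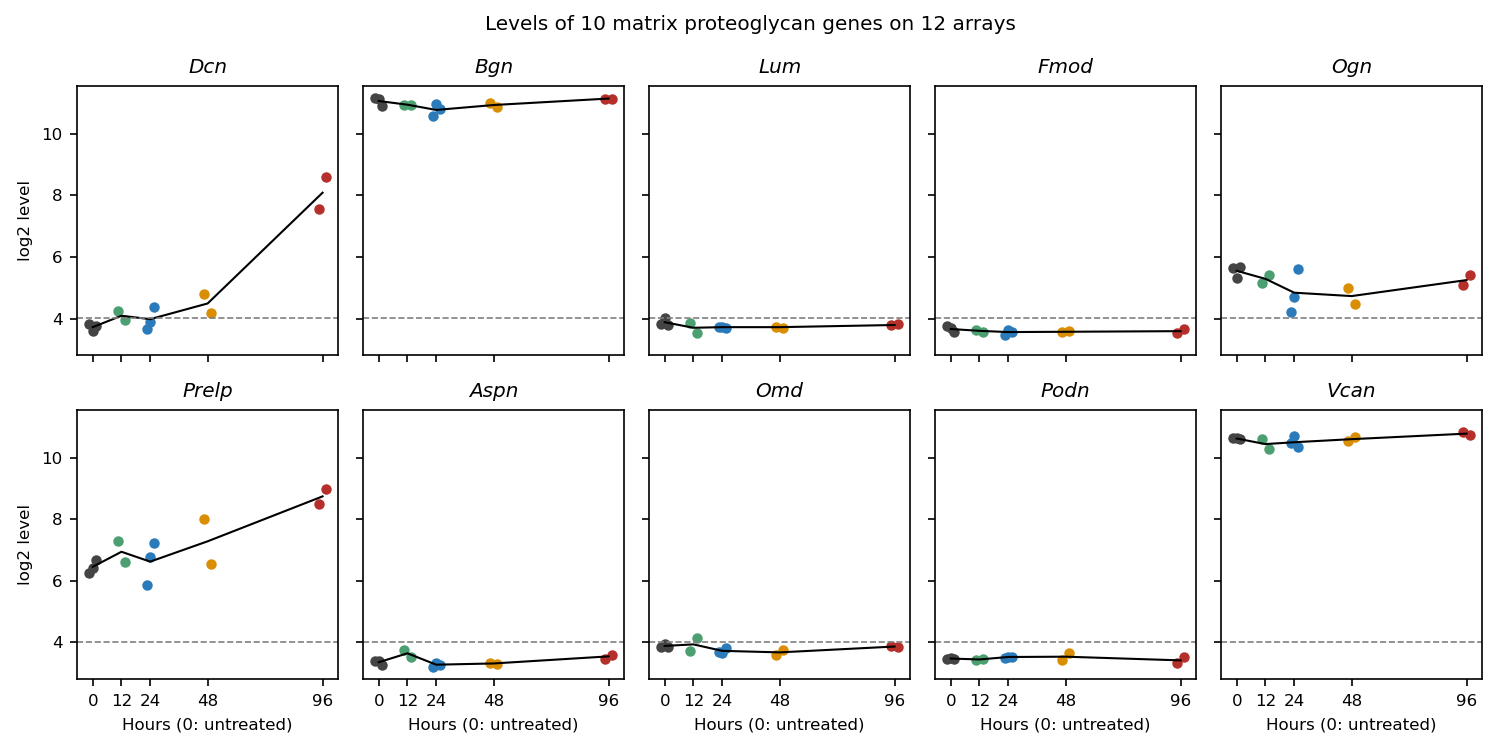
Log2 level (vertical axis) of each of the 10 genes against hours in 1 mM DFMO (horizontal axis, untreated cells at 0). Points are single arrays, set slightly apart within a group, lines join group means, and the dashed line is the floor of 4.02. Dcn leaves the floor and reaches 7.57 and 8.60 at 96 h, Prelp reaches 8.49 and 8.99, and Lum, Fmod, Aspn, Omd and Podn have group means below the floor throughout.

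Decorin, the class I member that binds collagen and TGF-beta, went from near the floor to clearly measured. The untreated arrays read 3.83, 3.59 and 3.75, the 12 h arrays 4.23 and 3.95, and the 24 h arrays 3.67, 3.89 and 4.38. The 48 h arrays read 4.81 and 4.18 and the 96 h arrays 7.57 and 8.60. Both 12 h arrays and both 48 h arrays lay above all untreated arrays, while the 24 h arrays overlapped the untreated and the 48 h arrays. Both 96 h arrays lay far above every earlier array. At 12 h the difference of 0.37 was not called (SE 0.31, limma, adjusted p = 0.989). The group mean was 3.72 ± 0.12 (SD, n = 3) in untreated cells, 4.49 ± 0.45 (n = 2) at 48 h and 8.09 ± 0.73 (n = 2) at 96 h. The rise at 96 h was 4.37 on the log2 scale (SE 0.31, 95% interval 3.67 to 5.06, limma, adjusted p = 1.05e-05), or 20.6-fold, and was called. At 48 h the difference was 0.77 (SE 0.31, 95% interval 0.08 to 1.47), with an unadjusted p of 0.0331 and a limma adjusted p of 0.201, which misses the threshold of 0.05. The step from 48 to 96 h, which uses no untreated array, was itself 3.59 (SE 0.34, 95% interval 2.83 to 4.36, limma, adjusted p = 0.000201), or 12.1-fold. In bulk RNA, a larger share of cells with the transcript and more transcript per cell cannot be told apart.

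No gene of the 19938 had a larger rise at 96 h than Dcn. The next were Ces2e, a carboxylesterase, at 4.30 and Sulf2, which removes sulfate from heparan sulfate chains, at 3.82. Without the second 96 h array, whose Dcn value was the higher, the rise was 3.85 and Dcn came second to Ces2e at 3.95. Because Dcn started near the floor, background can make its measured rise too small, while being the largest of 19938 changes can make it too large. Which of these weighs more was not tested. The place of Dcn in the spread of all genes is shown in the histogram of changes at 96 h.

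**Figure D2:**
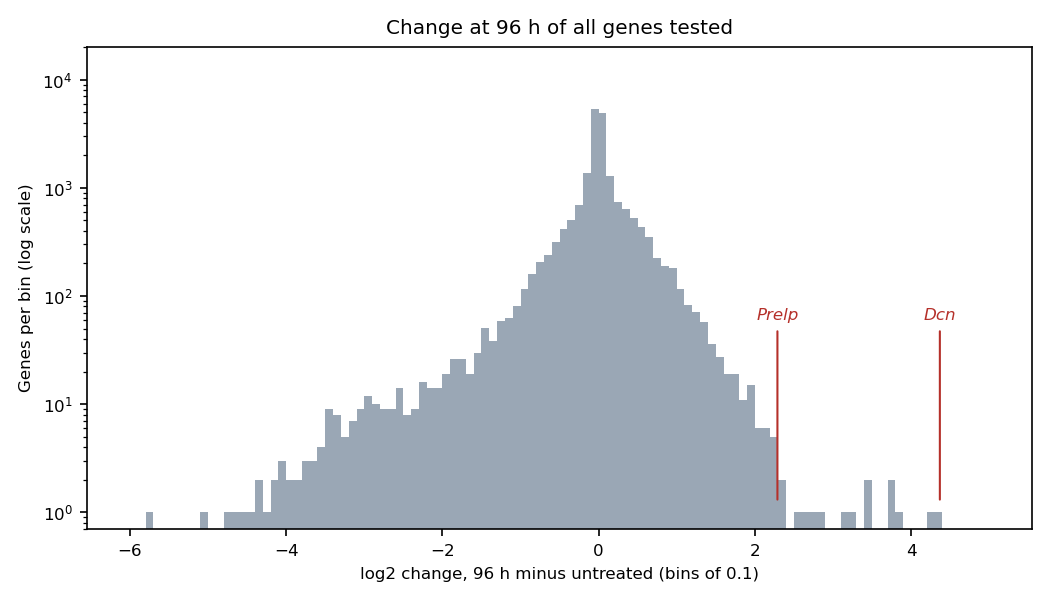
Number of genes per bin (vertical axis, log scale) by log2 change at 96 h against untreated cells (horizontal axis, bins of 0.1) for 19938 genes, with red lines at the 2 called proteoglycan genes. Dcn stands at the right end with 4.37 and Prelp in the upper tail with 2.29.

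Prolargin, a class II member with a basic end that binds heparan sulfate and anchors basement membranes to collagen, was above the floor on all arrays. Untreated arrays read 6.25, 6.42 and 6.67. The 12 h arrays read 7.28 and 6.61, the 24 h arrays 5.86, 6.77 and 7.22, the 48 h arrays 8.01 and 6.54, and the 96 h arrays 8.49 and 8.99. The 96 h arrays lay above all others, while the arrays of each earlier time overlapped the untreated ones and differed widely among themselves. The mean went from 6.45 ± 0.21 (SD, n = 3) to 8.74 ± 0.36 (n = 2) at 96 h, a rise of 2.29 (SE 0.47, 95% interval 1.23 to 3.35, limma, adjusted p = 0.00623), or 4.9-fold. In all, 15 genes had a larger rise. The call rests on the second 96 h array: without it the rise was 2.04 (SE 0.62) with a limma adjusted p of 0.0616. The step from 48 to 96 h was 1.46 (SE 0.52, 95% interval 0.30 to 2.63, limma, adjusted p = 0.129) and was not called.

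Within each of the 4 treated groups, the array with the highest Dcn also had the highest Prelp, and in untreated cells this did not hold. At 24 h, for example, the third replicate had 4.38 for Dcn and 7.22 for Prelp, and the first had 3.67 and 5.86. At 48 h the first replicate had 4.81 and 8.01 and the second 4.18 and 6.54. The groups are small, and how many other genes share this order with Dcn was not tested. At 12 h (4.23 and 3.95) and at 24 h, Dcn values lay on both sides of the floor of 4.02. Their order at those times cannot be read as a difference in transcript. The mean of 9 proliferation genes fell at 96 h, where Dcn and Prelp rose. It was 9.09 to 9.28 on untreated arrays, 8.29 and 8.37 at 48 h and 5.75 and 5.86 at 96 h. All 9 genes were called lower at 96 h, with a median change of -3.12. Mki67, a marker of dividing cells, changed by -4.05, and Mcm5 and Mcm2, parts of the replication helicase, by -4.57 and -2.56. Their part in the result for Dcn and Prelp was not tested.

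**Figure D3:**
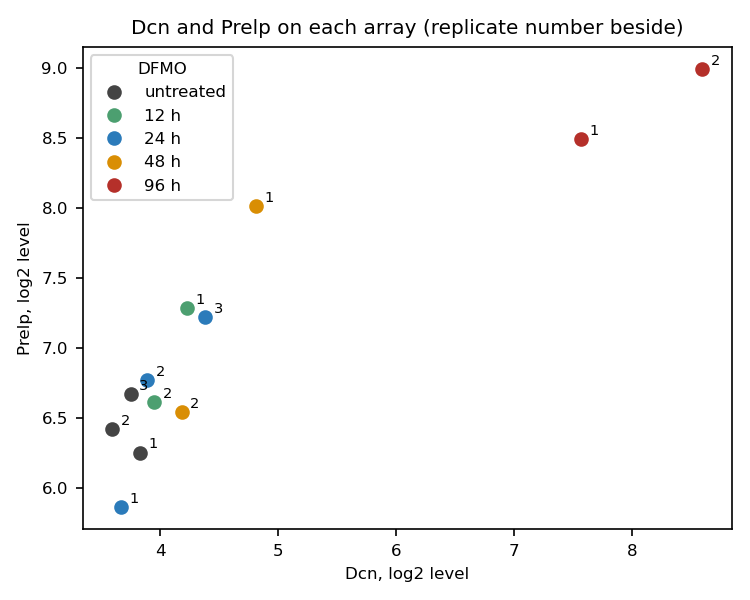
Log2 level of Prelp (vertical axis) against log2 level of Dcn (horizontal axis), with 1 point per array and colour by group. Within 12, 24, 48 and 96 h the array farther right is also the higher one, and the 96 h arrays stand alone at 7.57 and 8.60 for Dcn and at 8.49 and 8.99 for Prelp. At 12 and 24 h Dcn lies on both sides of the floor, so its order there cannot be read as a difference in transcript.

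Biglycan, the closest relative of decorin, was high from the start. Untreated arrays read 11.16, 11.15 and 10.90, 12 h arrays 10.95 and 10.94, 24 h arrays 10.58, 10.97 and 10.80, 48 h arrays 11.01 and 10.87, and 96 h arrays 11.15 and 11.15. Both 96 h arrays lay within the untreated range, and the lowest arrays, 10.58 and 10.80, were at 24 h. The difference at 96 h was 0.08 (SE 0.11, 95% interval -0.18 to 0.33, limma, adjusted p = 0.763), and was not called. The lowest mean was at 24 h, 10.78 ± 0.19 (SD, n = 3), where the difference was -0.29 (SE 0.10, limma, adjusted p = 0.563).

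Versican, the hyaluronan-binding member, was likewise high on every array. Untreated arrays read 10.64, 10.63 and 10.60, 12 h arrays 10.61 and 10.28, 24 h arrays 10.46, 10.70 and 10.34, 48 h arrays 10.53 and 10.68, and 96 h arrays 10.82 and 10.74. The 96 h arrays lay above all untreated arrays by a small margin. The difference was 0.15 (SE 0.12, 95% interval -0.11 to 0.42, limma, adjusted p = 0.481) and was not called.

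Osteoglycin, the class III member, was moderately above the floor. Untreated arrays read 5.63, 5.32 and 5.69, 12 h arrays 5.16 and 5.41, 24 h arrays 4.21, 4.70 and 5.61, 48 h arrays 4.98 and 4.48, and 96 h arrays 5.08 and 5.42. Both 48 h arrays lay below all untreated arrays, and the 24 h and 96 h arrays overlapped them. At 48 h the difference was -0.82 (SE 0.34, 95% interval -1.59 to -0.04), with an unadjusted p of 0.0403 and a limma adjusted p of 0.226. At 96 h it was -0.29 (SE 0.34, 95% interval -1.07 to 0.48, limma, adjusted p = 0.684).

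The other 5 genes had means near the floor in every group: lumican and fibromodulin, which bind collagen fibrils, asporin, which also binds calcium, osteomodulin, known from bone, and podocan. Single arrays ran from 3.53 to 4.03 for Lum, from 3.48 to 3.75 for Fmod, from 3.20 to 3.76 for Aspn, from 3.60 to 4.13 for Omd and from 3.32 to 3.64 for Podn. At 96 h their differences from untreated cells were -0.08, -0.07, 0.19, -0.03 and -0.06, with limma adjusted p values of 0.693, 0.621, 0.154, 0.929 and 0.699. Differences among values below the floor cannot be read as differences in transcript. For Aspn, untreated arrays read 3.40, 3.39 and 3.25, 12 h arrays 3.76 and 3.52, and 96 h arrays 3.47 and 3.60, all below the floor.

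**Figure D4:**
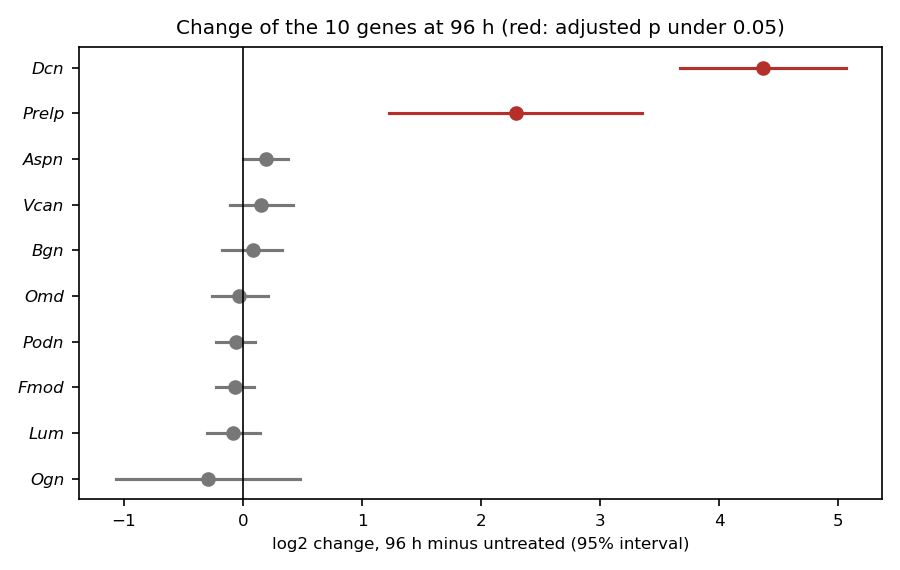
Log2 change at 96 h against untreated cells (horizontal axis) for each of the 10 genes, with its 95% interval from limma; red marks an adjusted p under 0.05. Dcn at 4.37 and Prelp at 2.29 have intervals well above 0, that of Aspn starts at 0.00, and those of the other 7 cross 0.

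At 12 h and at 24 h 0 of 10 were called, as were 0% and 0% of all genes by limma; unadjusted p values under 0.05 numbered 1 and 2 of the 10, and 741 and 1579 of all genes. At 48 h 0 of 10 were called, against 5.82% of all genes, with an unadjusted p under 0.05 for 2. At 96 h 2 of 10 were called, both higher, against 21.9% of all genes called and 11.8% called higher, and 3 had an unadjusted p under 0.05. This share is near the background, so the count is no result about the 10 genes. The median change of the 10 at 96 h was 0.03, beside 0.00 for all genes. Between neighbouring times, 0 of 10 were called from 12 to 24 h (0% of all genes) and from 24 to 48 h (1.67%), with 1 and 0 at an unadjusted p under 0.05. From 48 to 96 h 1 of 10 was called, Dcn, against 8.64% of all genes and 4.35% called higher. Limma's F test over all times called 3 of 10, Dcn (adjusted p = 7.57e-05), Prelp (adjusted p = 0.0427) and Aspn (adjusted p = 0.0433), against 17% of all genes. Aspn was below the floor on all arrays, so its call cannot be read as a difference in transcript. Under the alternatives that could be run, this F test called Dcn in 21 of 21, Prelp in 12 of 21 and Aspn in 9 of 20. The call of Prelp ended without the second 12 h array, the second 24 h array, either 96 h array or any of the untreated arrays (adjusted p up to 0.283). The call of Aspn ended without the first 12 h array, 24 h replicate 1 or 3, either 48 h or 96 h array, or the first or second untreated array (adjusted p up to 0.103).

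Several of these genes lie side by side in the genome. In RefSeq gene order Dcn is followed by Lum and Kera, another leucine-rich proteoglycan, which stood at -0.08 and -0.06 at 96 h (limma, adjusted p = 0.693 and 0.694). Prelp lies between Optc (-0.01) and Fmod (-0.07), also of this family, with limma adjusted p values of 0.968 and 0.621. The called genes Dcn and Prelp thus both had family members next to them that were not called. However, Lum, Kera, Optc and Fmod were near the floor in untreated cells (3.88, 3.69, 3.52 and 3.66). They were also near it at 96 h (3.79, 3.63, 3.52 and 3.59), so their lack of a call cannot be read as a lack of change. In the run Ecm2, Aspn, Omd and Ogn no gene was called at 96 h, and all but Ogn were near the floor in both groups. Of 22 measured genes within 2 places of any of the 10, the 10 themselves left out, 9 were called at 96 h, 5 higher and 4 lower. That is 40.9%, beside 21.9% of all genes, and the difference between these shares was not tested. The 22 genes were not matched to all genes in level. The risen neighbours were Btg1 near Dcn (0.63), Btg2 near Prelp (0.90), Nol8 next to Ogn (0.77), and Edil3 (0.91) and Xrcc4 (0.66) near Vcan. The fallen ones were Haus7 (-0.66) and Dusp9 (-1.04) near Bgn, Iars near Ogn (-0.47) and Cenpp near Aspn (-0.97). The limma adjusted p values ran from 9.04e-05 for Cenpp to 0.0124 for Btg1. Without the first 96 h array Btg1, Edil3 and Iars were not called (limma, adjusted p = 0.0669, 0.0806 and 0.0608), and Btg1 was not called without the second either (adjusted p = 0.0752).

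Among 1313 genes whose group means spanned at least 1 log2 unit, those most like Dcn over the 12 arrays were Ces2e (Pearson r = 0.989, from 3.69 untreated to 7.98 at 96 h), Thsd7a (r = 0.988, from 4.30 to 7.18) and Ptprv (r = 0.982, from 3.93 to 7.65). Those most like Prelp were Ctso (r = 0.956), Apobec1 (r = 0.946) and Reck, a membrane inhibitor of matrix metalloproteinases (r = 0.934, from 6.32 to 7.45). For Aspn the closest were Cp (r = 0.663), Srpx2 (r = 0.643) and Mylip (r = 0.580). As Aspn was below the floor on all arrays, its likeness to these genes cannot be read as a shared course of transcripts. The 12 points share treatment groups, and these correlations are descriptions.

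The enzymes that build the chains of decorin, biglycan and versican moved in both directions. Of 22 genes for the linker, chondroitin sulfate and dermatan sulfate, 4 rose and 7 fell at 96 h, with a median change of -0.17. Beside them, 21.9% of all genes were called at 96 h and 11.8% were called higher. The difference between these called shares was not tested, and the sets compared are unlike in level. In untreated cells 3 of the 22 were near the floor, while 47.3% of all genes lay at or below it. Ust, which sulfates uronic acid, rose from 6.48 to 7.57 (1.10, SE 0.12, limma, adjusted p = 0.00015). The epimerases that turn chondroitin into dermatan sulfate fell: Dsel from 6.74 to 5.74 (SE 0.13 of the log2 difference, limma, adjusted p = 0.000367) and Dse from 9.52 to 8.77 (-0.74, SE 0.13, limma, adjusted p = 0.00207). The dermatan 4-O-sulfotransferase Chst14 changed by -0.98. The other risen genes were Csgalnact1, which starts chondroitin chains, with 0.92, and the linker enzymes B4galt7 with 0.54 and B3gat3 with 0.31. The other fallen genes were Chpf with -0.59, Chpf2 with -0.43, Fam20b with -0.53 and Chst7 with -0.67. With each array left out in turn, 3 to 5 genes of the list were called higher and 4 to 7 lower. Without the second 96 h array the calls of Csgalnact1 (0.79, limma, adjusted p = 0.0572), Chpf2 (adjusted p = 0.063) and Fam20b (adjusted p = 0.09) ended, and without the first that of B3gat3 (adjusted p = 0.0604). The call of Chst7 ended without either 96 h array (limma, adjusted p = 0.058 and 0.0786). Of 7 keratan sulfate genes, 0 rose and 2 fell, with a median of -0.02: B3gnt2 changed by -0.69 and Chst2 by -0.69. Chst14, Chpf, Chpf2, Fam20b and Chst7, like the marker genes and neighbours with values, were named after their values were seen.

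Few other proteoglycan cores were called. Of 8 further leucine-rich proteoglycans and 12 further matrix proteoglycans, 0 were called at 96 h, with medians of -0.10 and -0.03; 6 and 9 of them were near the floor in untreated cells. Of 15 cell-surface proteoglycans, 1 rose and 1 fell: the syndecan Sdc2 from 9.24 to 10.13 (0.89, SE 0.09, limma, adjusted p = 7.42e-05) and Cspg4, also known as NG2, from 8.67 to 7.69 (-0.98, SE 0.24, limma, adjusted p = 0.0159). Without the second 96 h array Cspg4 stood at -0.76 and was not called (limma, adjusted p = 0.148). The median of that list was -0.02, and 8 of its genes were near the floor in untreated cells.

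Many binding partners and processing enzymes were near the floor in untreated cells, 7 of 12 and 10 of 15, which limits what could be called. Of all genes, 21.9% were called at 96 h. Among 12 hyaluronan and versican partners 2 rose and 0 fell (median 0.09): tenascin R, Tnr, by 1.48 from 4.02 to 5.50, and fibulin 2, Fbln2, by 0.58. Without the first 96 h array Fbln2 stood at 0.51 and was not called (limma, adjusted p = 0.108). Among 15 proteases that act on proteoglycan cores 2 rose and 0 fell (median 0.02): the membrane metalloproteinase Mmp14 from 9.31 to 10.73 (1.42, SE 0.24, limma, adjusted p = 0.00233) and Bmp1, which removes propeptides, by 0.45. The call of Bmp1 ended without either 96 h array or without untreated replicate 2 or 3 (limma, adjusted p up to 0.218).

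Among 17 receptors and growth factors that small proteoglycans bind 1 rose and 2 fell (median 0.01). Tlr4, a receptor for soluble biglycan and decorin, rose by 0.50, and Met, a receptor for decorin, changed by -0.82 (SE 0.11, limma, adjusted p = 0.000588). The growth factor Ccn2, or CTGF, changed by -1.41 (SE 0.42, limma, adjusted p = 0.0364), with an SD of 1.22 between the 96 h arrays. Without the second 96 h array Ccn2 stood at -0.55 (limma, adjusted p = 0.263), and its call also ended without either 12 h or 48 h array or without untreated replicate 2 or 3. That of Tlr4 ended without either 96 h array or any untreated array (limma, adjusted p up to 0.182).

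Among 19 collagens and crosslinking enzymes 1 rose and 5 fell (median -0.14). Col12a1, a fibril-surface collagen, rose from 6.04 to 7.62 (1.58, SE 0.24, limma, adjusted p = 0.0011). Col6a3, a chain of the collagen VI that decorin and biglycan bind, changed by -1.48, the crosslinking enzyme Lox by -0.86, Loxl1 by -0.54, Col1a1 by -0.97 and Col1a2 by -0.51. Without the second 96 h array Loxl1 (-0.35), Col1a1 (-0.66) and Col1a2 (-0.35) were not called (limma, adjusted p = 0.135, 0.247 and 0.33). The calls of both collagen I chains also ended without the first or second untreated array, and that of Col1a2 without untreated replicate 3, 24 h replicate 3 or either 48 h array. At 96 h 21.9% of all genes were called, and the called shares of these lists are to be read beside that figure. The sets are unlike in level: 3 of these 19 genes were near the floor in untreated cells, while 47.3% of all genes lay at or below it.

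**Figure D5:**
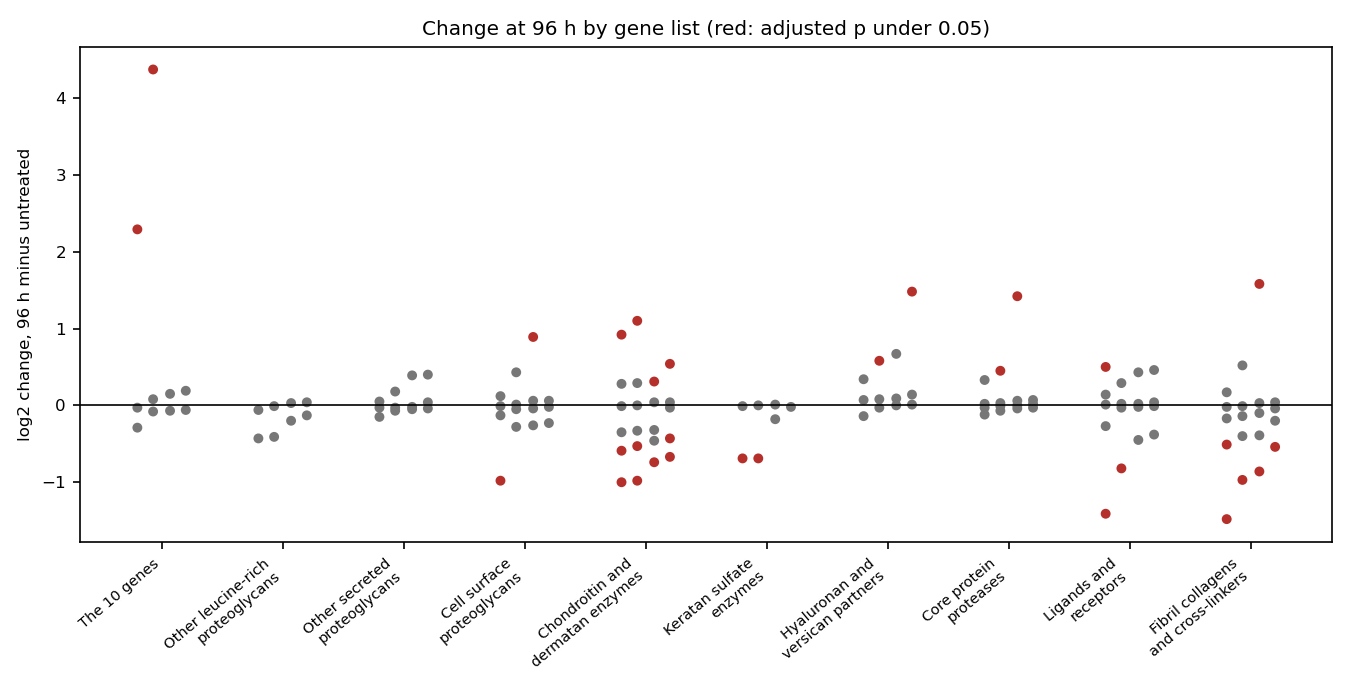
Log2 change at 96 h against untreated cells (vertical axis) of each measured gene, 1 point per gene, by gene list (horizontal axis; points are spread sideways for sight only). Red marks an adjusted p under 0.05: the chondroitin and dermatan list has 4 red points above 0 and 7 below of 22, the collagen list 1 above and 5 below of 19, and the other leucine-rich and other secreted proteoglycans have 0.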

How the data were processed

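The table that the authors deposited holds log2 values, with a row for every transcript cluster and a column for every array. Partek and RMA (background correction, quantile normalisation and probe summary) are named, without versions, per the submitters' processing notes. Deposited values spanned 2.53 to 13.18, array medians spanned 4.13 to 4.20, and replicates correlated at 0.994 to 0.998 across genes. For the array, no genome build is named in the sources.

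Names came from the platform annotation and from Entrez identifiers in RefSeq (GRCm38.p6): the table's 35399 clusters divide into 21789 with 1 symbol, 1621 with more than 1 and 11989 with none. Where a gene had several clusters (999 genes), the one with the highest mean was kept, leaving 19938 genes. Using limma 3.58.1 (R 4.3.3), 5 group means were fitted over the 12 arrays; the script was tested on simulated data. Tests were two-sided, with Benjamini-Hochberg adjustment over all genes in each comparison and a call below 0.05. Folds are the log2 difference on the linear scale. Named were all 10 genes, up to 3 genes per list called at 96 h with the smallest F test p, further list genes where a count was 5 or fewer, and the 3 genes most like Dcn and each called member. The members and lists were chosen with earlier results of these data known. Tables and figures used Python 3.11.15, pandas 2.3.3 and matplotlib 3.10.9. The untreated and 24 h groups share replicate numbers. Same-numbered arrays deviated together (r = 0.153, 0.287 and 0.581 across genes), but untreated replicate 1 was closer to 24 h replicate 2 (0.235). Untreated replicate 2 and 24 h replicate 1 reached 0.126, and the other unlike pairs were negative. The evidence for pairing is thus weak, and pairing was examined for untreated and 24 h arrays only. The fit as reported did not use the numbers. They entered only in the replicate block, an alternative setting, where pairing rests on the label numbers and these correlations. The 22 settings tried for each gene are reported at the end.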

Additional observations from a re-analysis of the deposited data

Results flagged for a closer look

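The level of Dcn in treated cells was higher at 96 h than at 48 h by 3.59 on the log2 scale (SE 0.34, limma, adjusted p = 0.000201). Both 96 h arrays lay above both 48 h arrays. Hours of drug and hours of growth cannot be told apart in this step. The step before it, from 24 to 48 h, was 0.51 (SE 0.31, limma, adjusted p = 0.653) and was not called.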

How the results depend on the processing

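Dcn kept its direction and its call in the 22 settings tried, from 3.85 to 4.88 at 96 h (limma, adjusted p from 7.08e-08 to 0.00043) and from 3.08 to 4.11 between 48 and 96 h. Prelp at 96 h ran from 2.04 to 2.54 and was called in 21 settings. Leaving out each array in turn, 1 to 2 of the 10 genes were called at 96 h and 1 to 3 over all times. Over all times 1 was called with all clusters tested, and from 48 to 96 h 2 were called when genes of low level were left out (Prelp 1.46, limma, adjusted p = 0.0493). With the replicate block (pairing by number), 2 were called at 96 h (Dcn 4.47, limma, adjusted p = 7.35e-05; Prelp 2.50, adjusted p = 0.00691) and 2 over all times, where Aspn lost its call; it changed no other call of the 10 genes. Small uncalled differences changed sign: Bgn at 96 h was -0.01 with 3 arrays left out together and -0.01 to 0.12 leaving out each array, Podn at 96 h -0.15 to 0.03, and Vcan at 48 h 0.03 with centred arrays and -0.09 to 0.05 leaving out each array. The cause was not tested. For list genes and the F test of single genes, the alternatives were added after the data were seen. Counts over all genes ran from 375 to 2194 at 48 h (1160 in the fit as reported), 3039 to 5271 at 96 h (4372), 61 to 521 from 24 to 48 h (333), 748 to 2258 from 48 to 96 h (1723) and 2023 to 3951 over all times (3395). With 2 or 3 arrays a group and background left in the values, small changes and changes near the floor could not be seen.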
